A study of Homo sapiens with 2 samples.

Results

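The genes described here are 45 genes of DNA replication. They encode the proteins that license origins, unwind and copy the DNA and supply its nucleotides, together with a few of their regulators. They were chosen by name, with earlier results of these data known, and all 45 were found among the 18377 genes of the array table. EBC1 is an established line of human squamous lung cancer that depends on amplification of MET, the gene of a receptor tyrosine kinase. EBC1-R is a subline that survived rising concentrations of the MET inhibitor PHA-665752 and was kept in medium with 3 µM of inhibitor. The study compared EBC1-R (1 array) with parental EBC1 (1 array) to look for mechanisms of resistance. The inhibitor was present in EBC1-R cultures, so resistance and continued drug exposure cannot be told apart.

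There was 1 array a group, so no test could be made, no value has an error from replicates, and the precision is limited by the number of arrays. Levels are the deposited values, read as log2 intensities, and each difference is the EBC1-R value minus the EBC1 value. A level depends on the probes of its gene as well as on the transcript, so levels are set only against the array median or the level filter, never gene against gene. The epithelial markers EPCAM, CDH1, KRT8, KRT18 and KRT19 lay far above the medians of all probe sets (6.71 in EBC1-R and 6.73 in EBC1), between 11.25 and 12.06 in EBC1-R and between 11.33 and 12.83 in EBC1. The measured squamous markers were not far above these medians, although the line is a squamous one. KRT5 and SOX2 lay below them, at 6.11 and 6.39 in EBC1-R and 6.17 and 6.53 in EBC1. KRT14 lay above them, at 6.97 in EBC1-R and 7.26 in EBC1. TP63 and KRT6A, the other squamous markers of the list, were not measured. Some of the line's own markers were among the lower genes, since KRT19, KRT8 and KRT18 differed by -0.89, -0.83 and -0.78. They were the 3 of 8 measured epithelial and squamous markers at least 1.5-fold lower, against 3.16% of all genes. That list had a median of -0.22, with EPCAM at -0.08 and CDH1 at 0.10, and its part in the results below was not tested. The marker lists of other cell types had median differences of 0.00 over 7 leukocyte genes, -0.03 over 7 fibroblast genes and 0.03 over 6 endothelial genes. Most had low levels, since their higher value reached 7.41, its median over all genes, in only 1, 1 and 0 of them. The leukocyte genes ran from -0.34 to 0.40, the latter in CD68, at 11.45 in EBC1-R and 11.04 in EBC1. MET itself differed by 0.04, while ABCB1, the efflux pump named in the study's title, was at 12.65 in EBC1-R and 5.37 in EBC1. No fold is given for ABCB1, since its EBC1 value is below the array median and may not exceed background.

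A cell copies its genome once per division. The origin recognition complex (ORC) marks the origins, and CDC6 and CDT1 load the ring of MCM proteins onto them before S phase, while geminin (GMNN) holds CDT1 in check. Kinases then recruit CDC45 and the GINS complex, which turn the loaded ring into the active helicase. DNA polymerase alpha with primase starts each strand, the clamp loader RFC places the sliding clamp PCNA, and polymerases delta and epsilon extend the strands. Many of these genes are transcribed under the control of E2F factors as cells leave G1, so their transcripts mark cells that are cycling. In RNA from a whole culture, fewer cells in S phase and less transcript per cell cannot be told apart.

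Most replication genes were lower in EBC1-R, by amounts under 2-fold, and a few were higher. Of the 45 genes, 38 were lower and 7 higher, with a median difference of -0.32. Across all genes 55.5% were lower, and the median difference was -0.03. A difference of 1.5-fold was used for counting. By that count 10 replication genes were lower and 0 higher, against 3.16% of all genes lower and 4.41% higher. At 2-fold there were 0 replication genes in either direction, against 0.887% of all genes lower. The 10 genes were RRM2, CDC45, MCM5, GINS3, ORC6, POLE, POLA2, TYMS, MCM3 and RFC4, which come from 6 of the 9 functional groups described below.

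Genes above the median level, called bright here, passed 1.5-fold more often than all genes did, and most replication genes are above it. In 39 of the 45 genes the higher of the paired values reached 7.41, the median of that value over all genes. Among all 9189 genes at or above that level, 50.2% were lower, 5.5% at least 1.5-fold lower and 7.03% at least 1.5-fold higher. ORC6, MCM10 and UHRF1 reached that level in EBC1 alone, so for them the difference itself bears on which side of the filter they fall. The other 9 of the 10 genes past 1.5-fold reached it on both arrays. The 6 genes below it were ORC1, CDC7, GINS4, POLE2, RPA2 and E2F2, and 3 of these were among the 7 higher in EBC1-R. For genes with several probe sets above that level, differences measured by probe sets of the same gene had a pooled SD of 0.16, which covers agreement within these arrays but not the spread of repeated cultures.

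**Figure D1:**
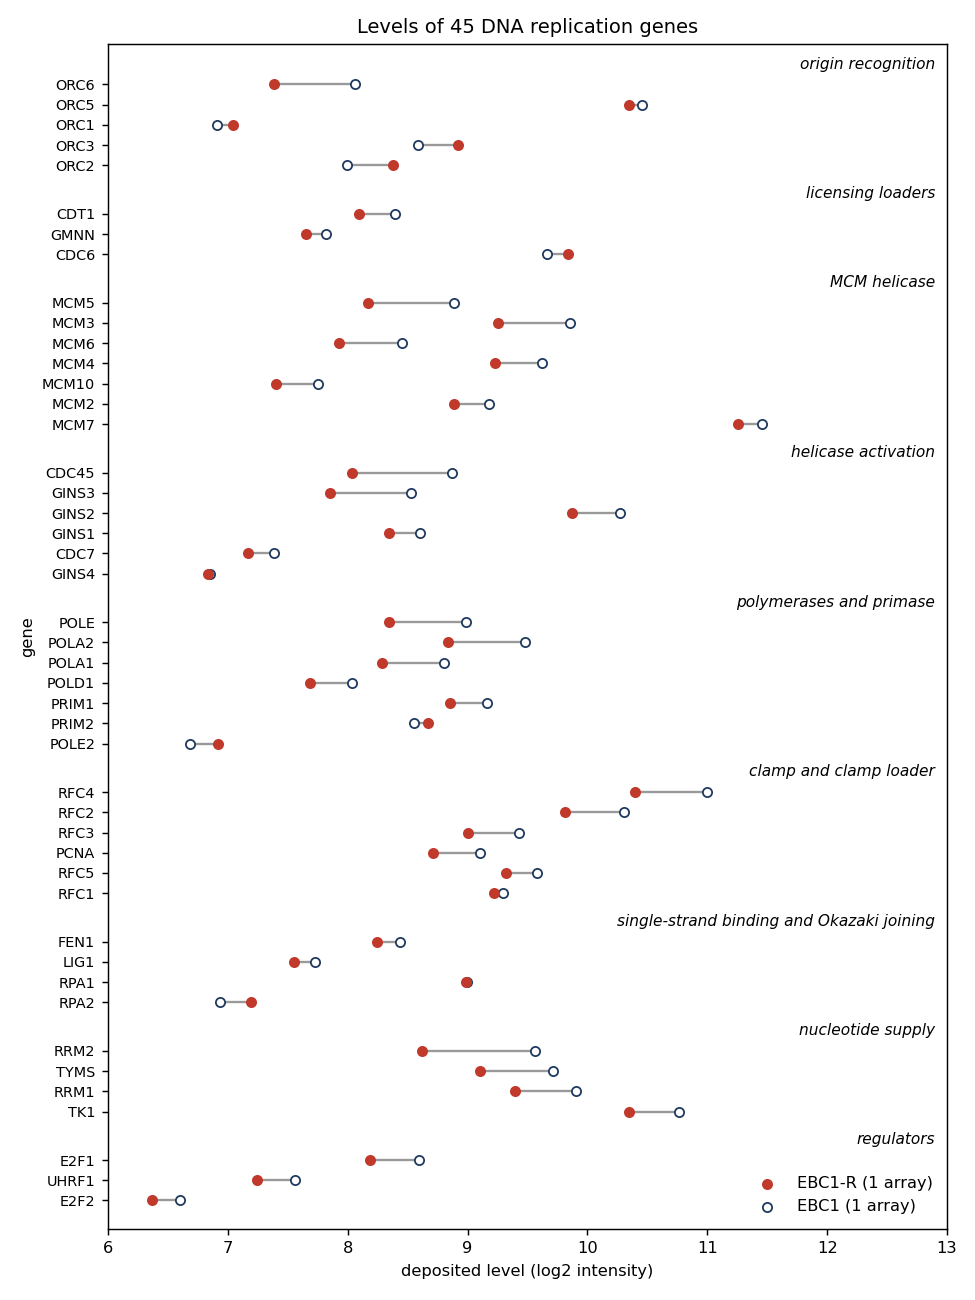
Deposited level (log2 intensity, x axis) of the 45 replication genes in EBC1-R (filled red, 1 array) and EBC1 (open blue, 1 array), by functional group and ordered by difference within it. The red points lie left of the blue ones for 38 genes and right of them for 7, among them ORC1, ORC2 and ORC3.

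**Figure D2:**
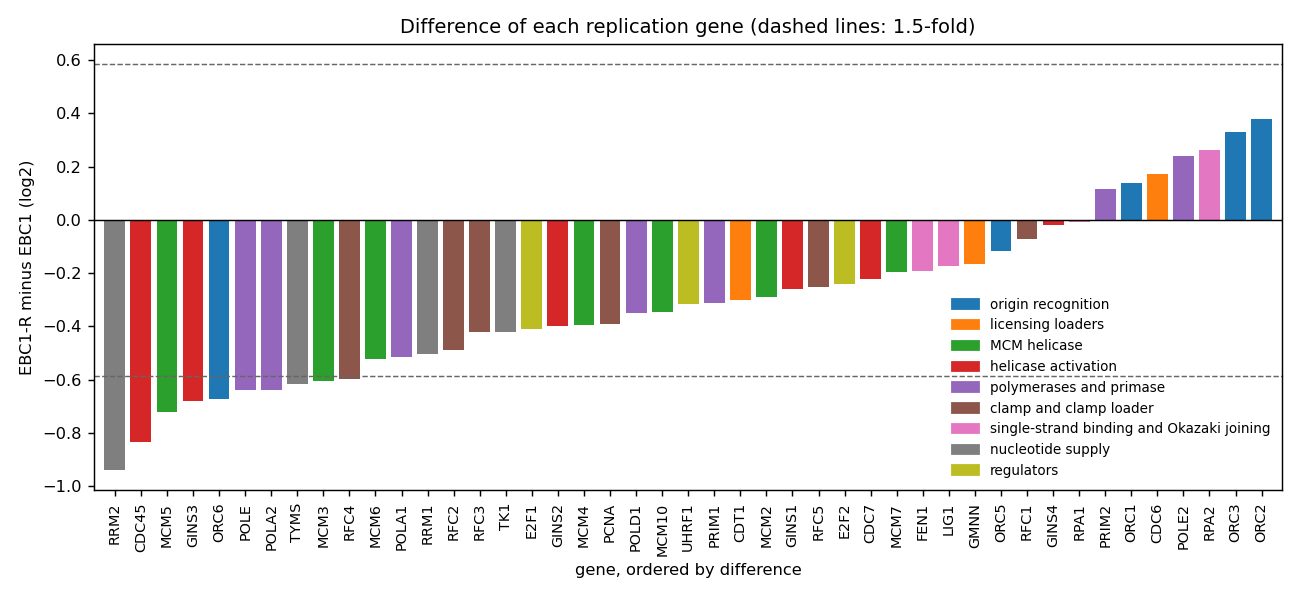
EBC1-R minus EBC1 (log2, y axis) of each replication gene, in order, with colours for the functional groups and dashed lines at 1.5-fold. The lowest bar is RRM2 at -0.94 and the highest ORC2 at 0.38, and 10 bars pass the lower line.

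The origin recognition complex was the group in which most members were higher, 3 of 5, against 7958 of all 18377 genes. ORC2, a subunit of the core complex, was at 8.37 in EBC1-R and 8.0 in EBC1, a difference of 0.38. ORC3, which pairs with ORC2 in that core, was at 8.92 in EBC1-R and 8.59 in EBC1. ORC1, the ATPase subunit whose level follows the cell cycle, was at 7.05 in EBC1-R and 6.91 in EBC1, both below the level filter. These were the only ORC genes of the list that were higher, and all 3 stayed under 1.5-fold. ORC5, another core subunit, differed by -0.12. ORC6, the small subunit that is bound loosely to the others, went the other way and was 1.60-fold lower, at 7.39 in EBC1-R and 8.06 in EBC1. Within this complex the differences thus ran from -0.67 to 0.38. ORC4, which completes the complex and was not on the list, differed by 0.13.

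Of the factors that load the helicase, CDC6 was higher and the other two lower, none by 1.5-fold. CDC6, the ATPase that joins ORC at the origin, was at 9.83 in EBC1-R and 9.66 in EBC1. CDT1, which brings the MCM ring to it, was at 8.09 in EBC1-R and 8.39 in EBC1. GMNN, the inhibitor of CDT1, was at 7.65 in EBC1-R and 7.82 in EBC1. The loader CDT1 and its inhibitor therefore differed in the same direction, by -0.30 and -0.16.

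All 7 MCM genes were lower in EBC1-R, with a median difference of -0.40. The 6 subunits of the helicase ring, MCM2 to MCM7, work as a single complex but did not differ by equal amounts. MCM5 was at 8.17 in EBC1-R and 8.89 in EBC1, 1.65-fold lower. MCM3 was at 9.25 in EBC1-R and 9.86 in EBC1, 1.52-fold lower, and MCM6 was at 7.93 in EBC1-R and 8.45 in EBC1, 1.44-fold lower. These 3 had the largest differences of the ring. MCM4 was 1.32-fold, MCM2 1.22-fold and MCM7 1.14-fold lower. MCM7, at 11.26 in EBC1-R and 11.45 in EBC1, differed least. MCM10, which is not part of the ring and helps to start unwinding, was at 7.41 in EBC1-R and 7.75 in EBC1.

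The genes that turn the loaded ring into a working helicase were lower in 6 of 6 cases, with a median of -0.33. CDC45 had the second largest difference of all replication genes, with 8.03 in EBC1-R and 8.87 in EBC1, 1.78-fold lower. GINS3 was at 7.85 in EBC1-R and 8.53 in EBC1, 1.60-fold lower. The 4 GINS subunits form a single complex, yet GINS2 differed by -0.40, GINS1 by -0.26 and GINS4 by only -0.02. GINS4 was dim on both arrays, at 6.83 in EBC1-R and 6.85 in EBC1, and its sign changed to 0.03 when an intensity trend was removed. CDC7, the kinase that phosphorylates the MCM ring, was at 7.16 in EBC1-R and 7.39 in EBC1. Its activating partner DBF4, which lies close to ABCB1 on the chromosome and was not on the list, was lower by more, at 5.82 in EBC1-R and 6.58 in EBC1. Both DBF4 values are below the median level, so this difference starts from a dim signal.

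Among the polymerases, the catalytic subunits were lower and a few accessory ones were not. POLE, the catalytic subunit of the leading strand polymerase epsilon, was at 8.35 in EBC1-R and 8.99 in EBC1, 1.56-fold lower. POLE2, its accessory subunit, was at 6.92 in EBC1-R and 6.68 in EBC1, a difference of 0.24 from a dim signal. The subunits of polymerase epsilon on the list thus differed in opposite directions. POLA1 and POLA2, the catalytic and regulatory subunits of polymerase alpha, were both lower, by 1.43-fold and 1.56-fold. POLA2 was at 8.84 in EBC1-R and 9.48 in EBC1. Of the primase that travels with polymerase alpha, PRIM1, the catalytic subunit, was at 8.85 in EBC1-R and 9.16 in EBC1, whereas PRIM2, the large subunit, was at 8.67 in EBC1-R and 8.56 in EBC1. POLD1, the catalytic subunit of polymerase delta, was at 7.69 in EBC1-R and 8.03 in EBC1. Its partners POLD2 and POLD3, from outside the list, both differed by 0.00, and POLD4 by -0.16.

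The sliding clamp and its loader were lower in 6 of 6 cases, with a median of -0.41. PCNA, the ring that tethers polymerases to DNA, was at 8.71 in EBC1-R and 9.10 in EBC1, 1.31-fold lower. RFC4 was at 10.40 in EBC1-R and 10.99 in EBC1, 1.51-fold lower, and was the only gene of this group past 1.5-fold. RFC2, RFC3 and RFC5, the other small subunits of the loader, were 1.40-fold, 1.34-fold and 1.19-fold lower. RFC1, the large subunit, was at 9.22 in EBC1-R and 9.29 in EBC1, a difference of -0.07. The small subunits also serve in other loaders, of which RFC1 is not a part.

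Genes for single-strand binding and for joining of lagging strand fragments had a median of -0.09 and a range from -0.19 to 0.26. Without RPA2, which is below the level filter, the median was -0.17. RPA1, the large subunit of the single-strand binding protein, was at 8.99 on both arrays. RPA2, its middle subunit, was at 7.19 in EBC1-R and 6.93 in EBC1, and was dim on both. FEN1, the nuclease that trims the fragments, was at 8.24 in EBC1-R and 8.44 in EBC1. LIG1, the ligase that seals them, was at 7.56 in EBC1-R and 7.73 in EBC1. RPA3, the small subunit of the binding protein, differed by 0.08.

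Nucleotide supply had the lowest median of the groups, -0.56, or 1.47-fold lower, and all 4 genes were lower. RRM2, the small subunit of ribonucleotide reductase that limits the enzyme in S phase, had the largest difference of the 45 genes, with 8.62 in EBC1-R and 9.56 in EBC1. It was 1.92-fold lower, and 1.07% of all genes had a difference as low or lower. RRM1, the large subunit of the same enzyme, was at 9.40 in EBC1-R and 9.90 in EBC1, 1.42-fold lower. TYMS, thymidylate synthase, was at 9.10 in EBC1-R and 9.72 in EBC1, 1.53-fold lower. TK1, the thymidine kinase of the salvage route, was at 10.35 in EBC1-R and 10.77 in EBC1, 1.34-fold lower. Both the synthesis route and the salvage route to thymidylate were therefore represented among the lower transcripts.

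Near the 1.5-fold line the count depends on small steps. TYMS at -0.62, MCM3 at -0.60 and RFC4 at -0.60 were the last genes inside it, and MCM6 at -0.52, POLA1 at -0.51 and RRM1 at -0.50 the first outside. When each array was centred on its own median, MCM3 and RFC4 fell outside and 8 genes were left. The share of replication genes below any given difference lay above that of all genes over most of the range, as the cumulative plot shows.

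**Figure D3:**
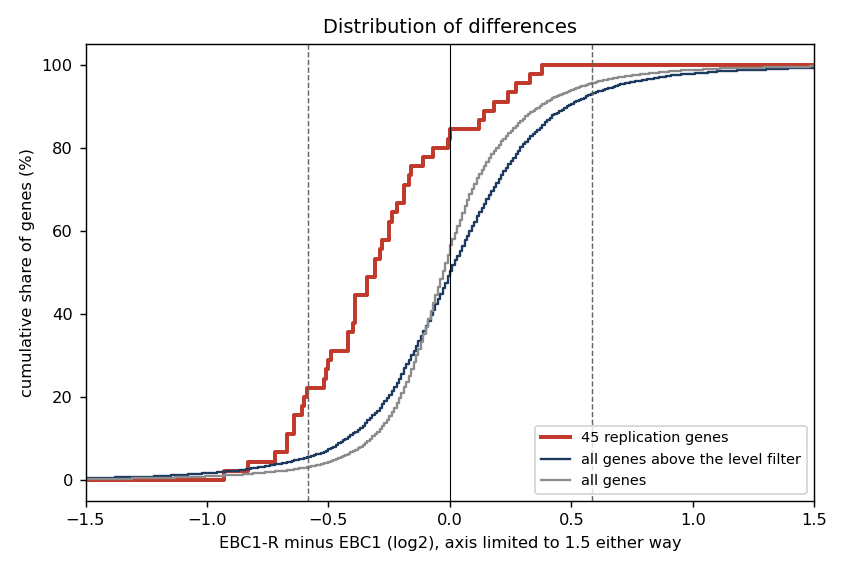
Cumulative share of genes (%, y axis) against EBC1-R minus EBC1 (log2, x axis, drawn to 1.5 either way) for the 45 replication genes, all genes above the level filter and all genes, with dashed lines at 1.5-fold. At the lower line 22.2% of replication genes and 3.16% of all genes lie to the left, and no replication gene lies right of 0.38.

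The 3 regulators on the list were lower by less than 1.5-fold. E2F1 and E2F2, activating members of the E2F family, were 1.33-fold and 1.18-fold lower, with E2F1 at 8.18 in EBC1-R and 8.59 in EBC1. UHRF1, which reads hemimethylated DNA and recruits the maintenance methyltransferase, is the only replication gene here with 2 probe sets, and they disagreed. The first was at 8.07 in EBC1-R and 8.71 in EBC1, a difference of -0.64. The second was at 6.42 in EBC1-R and 6.41 in EBC1, a difference of 0.01. The gap of 0.65 between them exceeds most differences in this gene set, and the mean of -0.32 describes neither. With the brighter probe set alone UHRF1 would be an 11th gene past 1.5-fold. The other 44 genes have 1 probe set each and cannot be examined in this way.

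The wider E2F network was lower too, with larger differences in a few genes. Of 33 measured genes, 26 (78.8%) were lower, with a median of -0.29, against 55.5% lower over all genes. At least 1.5-fold lower were 4 (12.1%) and 1 was higher by as much, against 3.16% and 4.41% of all genes. CCNE2, the cyclin partner of CDK2 at the start of S phase, was 2.32-fold lower, at 7.73 in EBC1-R and 8.94 in EBC1. MYBL2, the MYB protein that joins the MuvB complex in cycling cells, was 2.21-fold lower, at 8.45 in EBC1-R and 9.59 in EBC1. Both promote the cell cycle, but CDKN1A, which encodes the CDK inhibitor p21, was also lower, by 2.13-fold, at 8.94 in EBC1-R and 10.03 in EBC1. E2F7, a repressor of the family that is itself an E2F target, was at 9.59 in EBC1-R and 10.57 in EBC1, 1.97-fold lower. The genes with the largest increases were LIN52, a MuvB subunit, 1.58-fold higher, the E2F partner TFDP2, 1.44-fold higher, and the pocket protein RBL2, 1.18-fold higher. RBL2 and LIN52 belong to the DREAM complex, which represses E2F target genes in resting cells. RBL1, E2F4, E2F5 and TFDP1, also of this complex and picked with the data known, differed by -0.29, -0.17, -0.02 and -0.27. Whether the complex had a part in the differences of its targets was not tested. LIN37, LIN54 and LIN9, further MuvB subunits chosen after their values were seen, differed by -0.02, 0.01 and -0.05. CCNE1, the other cyclin E gene and likewise chosen afterwards, was at 6.75 in EBC1-R and 7.06 in EBC1.

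E2F factors bind short elements close to the start of many replication genes, and the letters of such elements were looked up in RefSeq promoter windows (GRCh38.p14). Each window holds 250 bases before an annotated start and 50 after it. The letters searched were TTTCCCGC, TTTCGCGC, TTTGCCGC and TTTGGCGC on both strands. Of the 41 replication genes with a window, 23 (56.1%) held at least 1 match in any of their windows. The share was 5.51% of the 14210 array genes with a window and 7.0% of the 7545 such genes above the level filter, while 3.31% of all 35116 windows held a match. MCM4, MCM5, GINS4 and RPA2 have no window in the table. A match is a run of letters and not a shown binding site. Stretches of 160 bases before the start are given here for 3 genes past 1.5-fold with a match (POLA2, POLE, TYMS), for MCM6, which has the most matches, and for ORC3, which was higher and also has a match. Capitals mark the E2F letters, the sequences run 5′ to 3′ on the gene's strand, and each ends at the base before the start.
MCM6, chr2:135876444-135876603, minus strand: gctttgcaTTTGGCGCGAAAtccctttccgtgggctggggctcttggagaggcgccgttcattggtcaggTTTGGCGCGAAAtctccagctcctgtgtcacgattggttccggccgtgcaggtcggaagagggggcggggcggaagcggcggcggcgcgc
POLA2, chr11:65261802-65261961, plus strand: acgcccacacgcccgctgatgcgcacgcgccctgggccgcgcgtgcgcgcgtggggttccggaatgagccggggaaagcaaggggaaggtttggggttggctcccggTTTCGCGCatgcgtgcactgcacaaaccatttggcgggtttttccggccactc
POLE, chr12:132687343-132687502, minus strand: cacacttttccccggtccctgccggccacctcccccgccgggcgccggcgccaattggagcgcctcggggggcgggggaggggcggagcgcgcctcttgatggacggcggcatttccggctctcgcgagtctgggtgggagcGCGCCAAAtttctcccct
TYMS, chr18:657493-657652, plus strand: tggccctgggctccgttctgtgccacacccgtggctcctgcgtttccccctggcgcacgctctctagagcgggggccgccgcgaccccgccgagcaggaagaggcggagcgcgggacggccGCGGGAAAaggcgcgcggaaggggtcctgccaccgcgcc
ORC3, chr6:87589975-87590134, plus strand: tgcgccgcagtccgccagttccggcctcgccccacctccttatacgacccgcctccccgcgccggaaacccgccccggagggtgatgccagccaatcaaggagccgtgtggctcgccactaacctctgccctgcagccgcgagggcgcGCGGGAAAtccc

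MCM6 holds 4 matches in 2 pairs, and within each pair a forward and a reverse match overlap. Matches in POLE and ORC3 lie within 20 bases of the start, although POLE was 1.56-fold lower and ORC3 1.26-fold higher in EBC1-R. Of the 32 matches in the windows of replication genes, 25 lie wholly before the start. Replication genes with and without these letters had like medians when probe sets were averaged. The median was -0.32 over the 23 genes with a match and -0.33 over the 18 without. At least 1.5-fold lower were 5 and 4 of them. The first median is the value of UHRF1, the mean of probe sets that disagreed. The next lower value among genes with a match was -0.39, in PCNA. With its brighter probe set alone UHRF1 would be at -0.64 and past 1.5-fold, so the comparison depends on this gene. Over all array genes the medians were -0.02 with a match and -0.03 without.

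**Figure D4:**
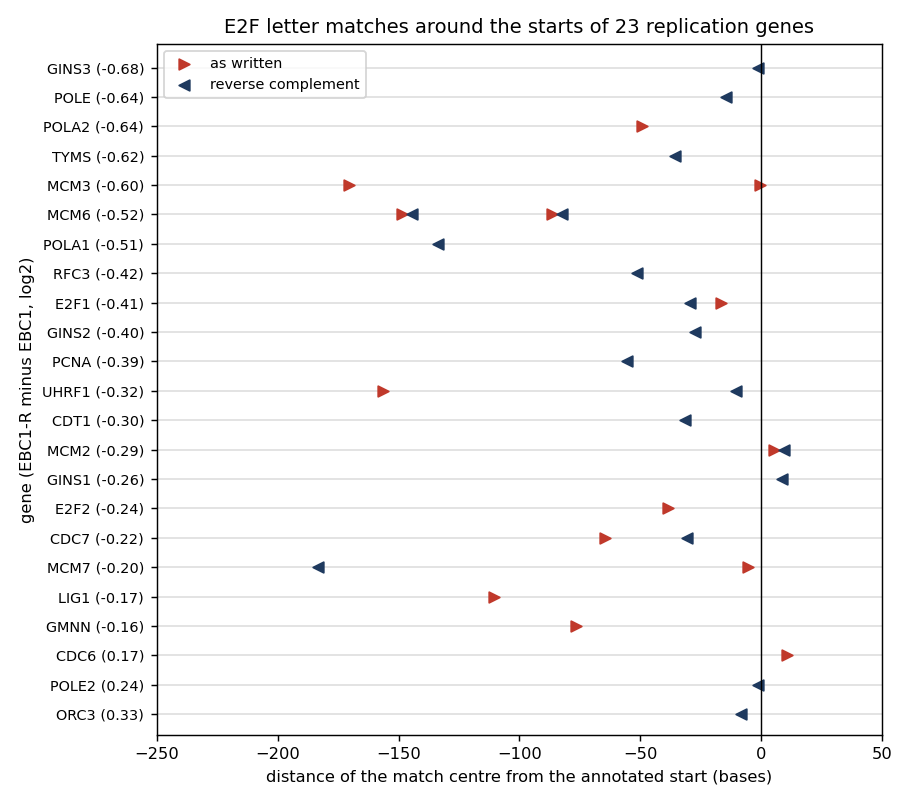
Position of E2F letter matches (distance of the match centre from the annotated start in bases, x axis) in the 23 replication genes that hold any, ordered from lowest to highest difference, with the difference in parentheses. Triangles give the orientation, all windows of a gene are drawn on its line, and matches crowd near the start in genes of every difference, including CDC6, POLE2 and ORC3, which were higher in EBC1-R.

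RRM2 and CDC45, the genes with the largest differences, hold none of these letters in their windows, which says only that the letters are not there. The window of the downstream start of RRM2 holds 3 copies of CCAAT, the letters of the element bound by the factor NF-Y, which are in capitals here.
RRM2, chr2:10122579-10122738, plus strand: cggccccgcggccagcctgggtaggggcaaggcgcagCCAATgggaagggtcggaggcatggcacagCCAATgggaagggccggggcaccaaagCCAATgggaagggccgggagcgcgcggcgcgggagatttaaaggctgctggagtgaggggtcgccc
CCAAT on either strand was found in 25 of the 41 replication genes with a window (61.0%). The share was 42.2% of all array genes with a window and 43.9% of those above the level filter. Both CCAAT and E2F letters were found in 13 replication genes. The median difference was -0.35 in replication genes with CCAAT and -0.29 in those without.

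Further genes of the replication machinery, outside the 45, were also lower for the most part. Of 38 measured, 32 (84.2%) were lower and 5 higher, with a median of -0.25, against 55.5% lower over all genes. At least 1.5-fold lower were 3 (7.89%). That share is close to the 5.5% of all genes above the level filter. CDCA5 (sororin), which protects cohesion between the new sister chromatids, was 1.72-fold lower, at 8.25 in EBC1-R and 9.03 in EBC1. ASF1B, a histone chaperone at the fork, was 1.67-fold lower, at 9.25 in EBC1-R and 9.99 in EBC1. DBF4, described above, was the third. The largest increases were 0.24 in MTBP, which acts in origin firing, 0.13 in ORC4 and 0.12 in TIPIN, a fork protection factor.

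Other genes of nucleotide synthesis were lower by less than the replication genes in the median. Of 26 measured, 15 (57.7%) were lower and 11 higher, with a median of -0.13. Over all genes 55.5% were lower, with a median of -0.03. All 26 were above the level filter, where 50.2% of genes were lower, with a median of -0.002. TK2, the thymidine kinase of mitochondria, was the only one past 1.5-fold, 1.67-fold lower. That share, 3.85%, is close to the 3.16% of all genes at least 1.5-fold lower and below the 5.5% of those above the level filter. DTYMK, the next kinase towards dTTP, was 1.46-fold lower, and DUT, which removes dUTP, was 1.44-fold lower. The increases were led by ADSL of purine synthesis, at 0.38, DHODH of pyrimidine synthesis, at 0.31, and SAMHD1, which breaks down dNTPs, at 0.28.

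Checkpoint and fork repair genes were divided. Of 19 measured, 12 (63.2%) were lower and 7 higher, with a median of -0.18, against 55.5% lower over all genes. At least 1.5-fold lower were 2 genes (10.5%), and 1 was higher by as much. Over all genes 3.16% were lower and 4.41% higher by as much, and above the level filter 5.5% and 7.03%. EXO1, a nuclease, was 1.68-fold lower and the checkpoint kinase CHEK1 1.57-fold lower. BRCA1, a repair gene, lay at the 1.5-fold line with -0.58 and was not counted. SMARCAL1, which remodels stalled forks, was 1.55-fold higher, at 8.98 in EBC1-R and 8.35 in EBC1. ETAA1, an activator of the kinase ATR, was 1.49-fold higher and the fork remodeller HLTF 1.41-fold higher. No replication gene of the 45 was higher by as much as any of these 3.

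Mitosis and spindle genes, transcribed later in the cycle, were lower to a like extent. Of 36 measured, 33 (91.7%) were lower, with a median of -0.34, and 7 (19.4%) were at least 1.5-fold lower. Over all genes 55.5% were lower and 3.16% at least 1.5-fold lower, and above the level filter 50.2% and 5.5%. AURKB, the kinase of the chromosomal passenger complex, was 1.96-fold lower, at 9.52 in EBC1-R and 10.49 in EBC1. ECT2, needed for cytokinesis, was 1.75-fold lower and the spindle motor KIF11 1.69-fold lower. CCNB1, CDC20 and PTTG1, which act at the entry to and exit from mitosis, were the 3 genes that were higher, by 0.04, 0.04 and 0.17. The difference between the median of this list and that of the replication genes, -0.34 against -0.32, could not be tested with 1 array a group. The E2F letters were in the windows of 2 of 30 mitotic genes (6.67%) and of 23 of 41 replication genes (56.1%). The share was 5.51% of all array genes with a window and 7.0% of those above the level filter. Whether the letters had a part in the differences of either list was not tested.

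**Figure D5:**
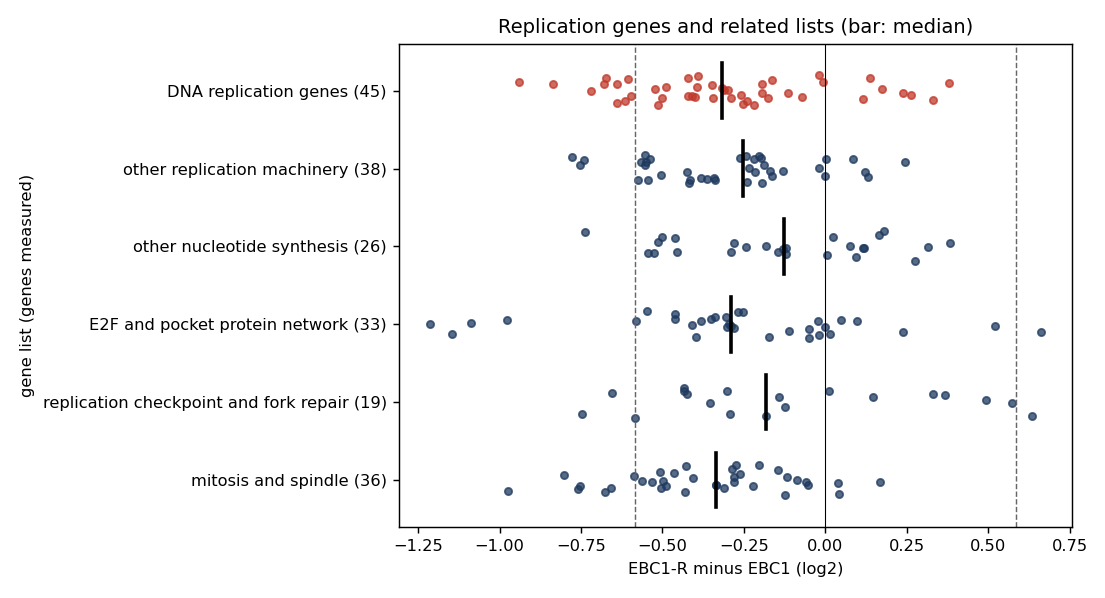
EBC1-R minus EBC1 (log2, x axis) of each measured gene in the replication set (red) and in 5 related lists (blue), with black bars at the medians and dashed lines at 1.5-fold. Medians run from -0.34 in mitosis and spindle genes to -0.13 in other nucleotide synthesis genes, and the lowest points, CCNE2, MYBL2 and CDKN1A, belong to the E2F network.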

How the data were processed

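RNA of EBC1-R and EBC1 was measured on 1 array each. Per the labels' protocols, Trizol RNA was labelled with a whole-transcript kit. The extraction text names an HG-U133 array, but the 28869 probe identifiers match the annotation of an Affymetrix whole-transcript gene array. The authors deposited 1 value per probe set, taken here as log2 intensities from the range (4.22 to 14.2 in EBC1-R, 4.21 to 14.1 in EBC1). No source used here gives the log base, the software or how the values were background-corrected, summarized and normalized. The columns had nearly the same distribution (medians 6.71 and 6.73), so a change shared by most genes would not be seen.

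Probe sets with exactly 1 gene symbol (19310) were averaged per gene, while 1752 with several and 7807 with none were left out. By gene identifier 19279 of the averaged probe sets matched the RefSeq gene table, and no symbol changed. Calculations used Python 3.11.15, pandas 2.3.3, NumPy 2.4.6 and SciPy 1.17.1. The counting code was checked on simulated shifts of 2-fold, larger than any replication gene showed, so the check does not cover counts near 1.5-fold. There was no test, since each group has 1 array. Members, lists and thresholds were chosen with earlier results of these data known. All 45 genes are named, with the 3 largest increases and decreases of each related list and all E2F network genes past 1.5-fold. Complex partners from outside the list (ORC4, POLD2, POLD3, POLD4, RPA3) were named after their values were seen. The closing section gives the effect of quantile normalization, median centring, lowess (span 0.2), a pseudocount of 16, the brightest probe set, level filters and other folds.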

Additional observations from a re-analysis of the deposited data

How the results depend on the processing

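Across quantile normalization, median centring, lowess, the pseudocount and the brightest probe set, the median difference of the replication genes stayed between -0.35 and -0.30, between 36 and 38 genes were lower, and 8 to 11 were at least 1.5-fold lower. Signs changed only for GINS4 (median centring and lowess) and RPA1 (median centring), both within 0.02 of 0 as deposited. Above the level filters, on the higher or the mean value, 35 of 39 genes were lower, with a median of -0.39, and the same 10 passed 1.5-fold. The helicase activation group had a median of -0.54 there, since CDC7 and GINS4 drop out. At 2-fold the count of lower genes was 0. At a looser threshold of 0.32 log2 units it was 22, against 10.4% of all genes and 15.5% of those above the level filter. By that threshold 2 were higher, against 2177 of all 18377 genes. No alternative moved the median of all genes by more than 0.03. UHRF1 was at -0.64 with its brighter probe set. No paired analysis was possible because each group holds 1 array. No detection calls were used, so whether the signals of E2F2 and GINS4 exceed background is not known.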

Other observations

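Across the 45 replication genes the difference and the mean level had Pearson's r = -0.27 and Spearman's rho = -0.27, given as a description over genes that share the same 2 arrays. The letters GGGCGG of the GC box were found in 30 of 41 replication genes with a promoter window (73.2%), 65.9% of all array genes with a window and 79.2% of those above the level filter. The E2F letters were present in 3 of 3 licensing loaders and 3 of 3 regulators, 4 of 5 MCM genes with a window and 4 of 5 helicase activation genes with a window. They were present in 1 of 5 ORC genes, and in 9 of 30 further replication machinery genes with a window.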
